A study of Mus musculus with 9 samples.

Results

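Immediate early genes are the first genes that cells transcribe after a stimulus, and 37 of them were followed here among the 55291 genes of an RNA-seq table from sorted mouse olfactory sensory neurons. The genes were listed by name, with earlier results of these data known. They fell into 12 genes best known as responses of neurons to electrical activity, 20 known as general responses to tissue dissociation, growth factors and stress, and 5 others, Fosl1 and the phosphatases Dusp2, Dusp4, Dusp5 and Dusp6, grouped as ERK feedback and other. Each neuron of the olfactory epithelium expresses a single odorant receptor gene, and the 3 groups were neurons that express Olfr160, Olfr73 or Olfr1507. They came from mice of the genotypes Olfr160-IRES-mCherry, Olfr73-IRES-GFP and Olfr1507-IRES-GFP, in which an internal ribosome entry site couples a fluorescent protein to the receptor's own transcript, so that the receptor gene decides which neurons are labelled. Each group had 3 libraries, named here library 1, 2 and 3 of a group. The labels name the tissue as mature olfactory sensory neurons and give neither age, sex nor any odour treatment, and the series text speaks of duplicates where 3 libraries a group were analysed. The same handling is described for every group: the epithelium was dissected in cold buffer, digested with warm papain and DNase, and sorted for bright fluorescence and low DAPI, which leaves out dead cells. No group skipped the digestion, so RNA made during dissociation and RNA present in the animal cannot be told apart in any library. The Olfr160 group also differs from the other two in its fluorescent protein.

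Immediate early genes need no new protein to be switched on. Calcium entry or growth factor signals act through kinases on factors already bound to DNA, chiefly CREB at the cAMP response element (CRE) and the serum response factor with its Elk partners at the CArG box. The products are mostly transcription factors of the AP-1, Egr, Nr4a and Klf families, together with inhibitors that end the response, such as the Dusp phosphatases that inactivate MAP kinases and the RNA-destabilizing protein Zfp36. Arc, Npas4 and Bdnf are known for their tie to neuronal activity, whereas Fos, Jun, Ier2 and Dusp1 are induced in many cell types when a tissue is taken apart.

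The reference table of promoters from RefSeq (build GRCm38.p6) held 30 of the 37 genes, each with 250 bases before and 50 after a transcription start. Promoters of 9 genes are shown because they hold the elements through which these genes are known to respond, or, for Ier3, because none of the searched motifs was found in the window. Only the 250 bases before the start are printed, 5′ to 3′ on the strand of the gene, and capitals mark every match, on either strand, to a CRE (TGACGTCA), its core alone (TGACG), a CArG box, an AP-1 site (TGACTCA or TGAGTCA), an EGR site (GCGGGGGCG or GCGTGGGCG) or TATAAA.
Npas4, chr19:4989972-4990221, minus strand: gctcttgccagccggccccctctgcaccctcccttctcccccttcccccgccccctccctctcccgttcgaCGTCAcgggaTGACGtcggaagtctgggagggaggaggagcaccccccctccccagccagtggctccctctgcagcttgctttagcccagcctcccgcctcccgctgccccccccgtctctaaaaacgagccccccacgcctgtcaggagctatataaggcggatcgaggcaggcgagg
Nr4a1, chr15:101266596-101266845, plus strand: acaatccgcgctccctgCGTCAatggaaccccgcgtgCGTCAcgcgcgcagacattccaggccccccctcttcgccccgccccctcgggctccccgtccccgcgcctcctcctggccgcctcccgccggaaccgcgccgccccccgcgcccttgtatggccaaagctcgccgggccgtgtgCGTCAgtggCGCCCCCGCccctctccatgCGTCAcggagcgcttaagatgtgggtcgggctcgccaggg
Nr4a2, chr2:57124004-57124253, minus strand: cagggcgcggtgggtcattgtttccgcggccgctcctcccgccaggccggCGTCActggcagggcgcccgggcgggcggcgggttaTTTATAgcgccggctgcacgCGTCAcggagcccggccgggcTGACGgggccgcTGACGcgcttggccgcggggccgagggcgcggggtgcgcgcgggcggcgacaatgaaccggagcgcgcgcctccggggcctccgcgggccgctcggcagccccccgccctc
Fosb, chr7:19310046-19310295, minus strand: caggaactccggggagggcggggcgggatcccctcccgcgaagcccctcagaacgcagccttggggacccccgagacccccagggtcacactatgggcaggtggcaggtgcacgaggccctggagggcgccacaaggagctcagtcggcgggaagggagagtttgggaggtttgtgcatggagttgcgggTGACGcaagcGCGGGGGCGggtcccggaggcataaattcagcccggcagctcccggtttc
Fos, chr12:85473640-85473889, plus strand: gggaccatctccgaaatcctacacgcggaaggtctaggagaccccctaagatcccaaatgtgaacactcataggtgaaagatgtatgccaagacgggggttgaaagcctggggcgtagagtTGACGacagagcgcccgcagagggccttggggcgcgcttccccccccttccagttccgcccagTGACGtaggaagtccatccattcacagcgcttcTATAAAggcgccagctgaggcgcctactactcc
Btg2, chr1:134079156-134079405, minus strand: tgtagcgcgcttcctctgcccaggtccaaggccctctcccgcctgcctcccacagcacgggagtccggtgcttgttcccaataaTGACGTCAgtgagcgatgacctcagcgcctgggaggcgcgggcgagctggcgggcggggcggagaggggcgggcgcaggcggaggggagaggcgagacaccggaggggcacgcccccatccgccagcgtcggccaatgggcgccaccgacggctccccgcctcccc
Dusp1, chr17:26508473-26508722, minus strand: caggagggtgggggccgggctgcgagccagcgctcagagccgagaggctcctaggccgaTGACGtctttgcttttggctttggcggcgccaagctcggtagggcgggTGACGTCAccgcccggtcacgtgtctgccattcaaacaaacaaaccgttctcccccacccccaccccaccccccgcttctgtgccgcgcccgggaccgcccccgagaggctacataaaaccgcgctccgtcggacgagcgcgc
Zfp36, chr7:28379229-28379478, minus strand: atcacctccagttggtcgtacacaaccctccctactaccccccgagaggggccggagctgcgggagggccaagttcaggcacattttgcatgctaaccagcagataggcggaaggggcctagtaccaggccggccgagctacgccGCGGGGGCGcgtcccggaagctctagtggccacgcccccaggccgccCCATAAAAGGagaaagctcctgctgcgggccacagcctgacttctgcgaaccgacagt
Ier3, chr17:35821463-35821712, plus strand: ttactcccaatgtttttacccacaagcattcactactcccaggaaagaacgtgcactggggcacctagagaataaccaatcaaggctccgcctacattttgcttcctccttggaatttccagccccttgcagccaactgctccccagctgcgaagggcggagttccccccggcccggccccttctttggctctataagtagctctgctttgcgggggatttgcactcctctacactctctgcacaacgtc

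In the Nr4a1 promoter, 4 CRE cores lay at 233, 213, 69 and 40 bases before the start, beside 1 EGR site. The Fos promoter held 2 cores, at 129 and 66 bases, and TATAAA at 33 bases before the start. Complete CREs stood 166 bases before the Btg2 start and 143 bases before the Dusp1 start. Zfp36 had a CArG box 58 bases before its start and no CRE core. Over the whole windows of 300 bases, 19 of 30 genes held a core, or 63.3%, against 23.0% of the 27025 genes in the promoter table. All 9 genes of the neuronal activity class with a promoter in the table had one, compared with 8 of 18 genes of the dissociation class. The neuronal genes had 20 promoters among them, since Bdnf alone has 7 starts and Egr2 has 5, so these genes had more windows in which a match could fall; counted by promoter, 55.0% and 45.0% held a core. Member promoters were also richer in GC, with a median of 62.0% against 52.7% for all promoters, and 31.6% of all promoters with at least 60% GC held a core. EGR sites were found in 9 of 30 genes, or 30.0%, against 3.93% of all genes, complete CREs and CArG boxes in 3 genes each (2.03% and 1.81% of all genes), TATAAA in 5 of 30 (15.7% of all genes) and AP-1 sites in 0 of 30 (5.95% of all genes). These are matches of letters, and a window without a match says nothing of the factor.

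Libraries held between 17212807 and 36230606 expected counts, so that 3 counts corresponded to between 0.0990 and 0.167 normalised CPM (counts scaled to a common library size, as for all levels below). The defining transcripts of mature olfactory neurons, Omp, Gnal, Cnga2 and Adcy3, were abundant in every library, and the summed transduction list made up 4.52, 6.58 and 9.55% of the counts of Olfr160, Olfr73 and Olfr1507 libraries on average. Several lists of other cells of the epithelium ran the opposite way. Sustentacular and gland markers, from the supporting cells and mucus glands, summed to between 2.00 and 4.57% of counts in Olfr160 libraries, between 0.311 and 0.572% in Olfr73 and between 0.0237 and 0.0572% in Olfr1507. Immune markers averaged 0.0619, 0.00969 and 0.000353% in the same order of groups, and basal and progenitor markers 0.0460, 0.00741 and 0.000411%. The respiratory list was mixed. Krt8, its most abundant gene in Olfr160, was at 496, 128 and 11.7 CPM in Olfr160, Olfr73 and Olfr1507. The ciliary genes of the list did not share an order. Foxj1 (8.36, 12.02 and 20.1 CPM), Tekt1 (81.9, 112 and 187 CPM) and Dynlrb2 were highest in Olfr1507. Dnah5 (21.7, 8.96 and 2.14 CPM) was lowest there, and Cfap126 (46.9, 138 and 103 CPM) was highest in Olfr73. In Olfr1507 the immune genes Csf1r and Itgam and the glial gene Sox10 were at 0 counts in all 3 libraries. The progenitor gene Neurog1 was at 0 counts in Olfr1507 and in Olfr73, and at 5 counts summed over Olfr160. Other progenitor genes were counted in Olfr1507, such as Krt5 at 0.786 CPM and Top2a at 1.01 CPM. Immediate early genes are expressed by all of these cells, and the part that their RNA has in the results below was not tested. In such bulk libraries, fewer cells of a type and less RNA per cell cannot be told apart.

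Most of the tested genes had their highest mean in the Olfr160 libraries and their lowest in the Olfr1507 libraries. Of the 37 genes, 33 passed the filter on low counts. Compared with Olfr160, 20 of the 33 were lower in Olfr1507 by edgeR's quasi-likelihood test at an adjusted p of 0.05 and 0 were higher, with a median log2 fold change of -2.40; 1 gene, Ier2, was higher and 22 genes were lower at an unadjusted p of 0.05, and DESeq2 also called 0 higher, with 23 lower. Among all 16399 genes tested, 27.7% were called lower and 20.7% higher (48.4% in either direction), and their median was -0.14. Olfr1507 against Olfr73 gave 15 genes lower and 2 higher, Fos and Ier2, with a median of -1.37, where the table as a whole had 19.9% lower, 14.5% higher (34.4% in either direction) and a median of -0.15. For Olfr73 against Olfr160 the count was 13 lower and 0 higher, with a median of -1.27, against 10.5% lower, 7.45% higher (17.9% in either direction) and a median of -0.012 for all genes; at an unadjusted p of 0.05, 18 were lower and 2 higher, and DESeq2 called 15 lower and 0 higher. The 3 comparisons share their groups and are not separate evidence of one another. Whether the 3 libraries of a group stem from different mice is not in the labels, so the error behind each p is that between libraries and may be technical.

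**Figure D1:**
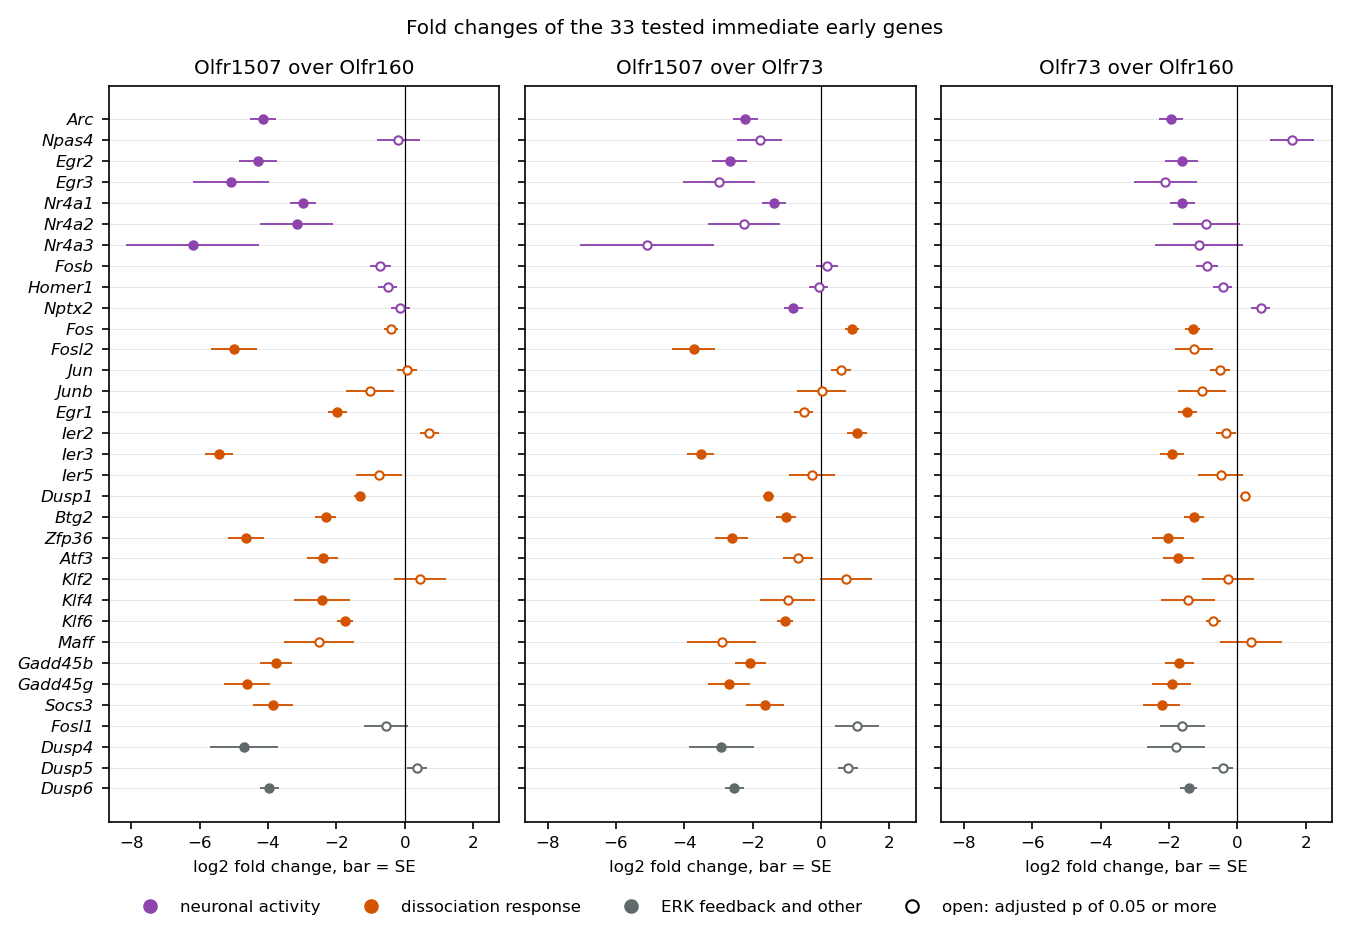
Log2 fold changes (x axis) with their standard errors (bars) for the 33 tested genes (y axis) in the 3 comparisons, coloured by class; filled points have an adjusted p under 0.05. Most filled points lie left of 0, with Fos and Ier2 in Olfr1507 over Olfr73 as the exceptions to the right.

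Without any model, the libraries of the 2 groups did not overlap and were lower in Olfr1507 than in Olfr160 for 24 of the 33 tested genes, where 36.8% of all tested genes showed this and 29.0% showed the reverse; 1 member, Ier2, showed the reverse. Olfr1507 libraries lay below all Olfr73 libraries for 16 of the 33 and above them for 5, against 24.9 and 22.7% of all tested genes. Olfr73 libraries lay below all Olfr160 libraries for 19 of the 33 and above them for 3, against 23.8 and 17.2% of all tested genes. The order Olfr160, then Olfr73, then Olfr1507 held for the mean CPM of 21 of the 33 tested genes, or 63.6%, and for 30.2% of all tested genes. A separate set, Fos, Fosb, Junb and Fosl1, was lowest in Olfr73, with Olfr160 highest. Jun, Ier2, Klf2 and Dusp5 were highest by mean in Olfr1507 and lowest in Olfr73. Npas4, Nptx2, Dusp1 and Maff were highest in Olfr73 and lowest in Olfr1507. Each of these orders held for 12.1% of the tested members, against 8.24, 12.2 and 16.2% of all tested genes. Scaled to the transduction list, the sign of the 4 genes highest in Olfr1507 turned against Olfr160, and that of Dusp1 and Maff turned in Olfr73 over Olfr160. Measured from the median of all genes, Ier2 stood at 0.86 under the TMM and the transduction scaling, Dusp5 at 0.50 and 0.47 and Jun at 0.21 and 0.18 in Olfr1507 over Olfr160. Among these 12 genes out of the main order, the between-group differences that passed the test were those of Fos, Ier2, Nptx2 and Dusp1 described below.

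How the libraries are scaled moved every gene. Scaling by library size alone set the median of all genes at -0.56 in Olfr1507 over Olfr160, and scaling to the transduction list at -1.69, and the share of calls over the table that were higher dropped from 42.8% to 17.7% and 0.876%. In the other comparisons that share went from 42.2% to 18.2 and 3.96% for Olfr1507 over Olfr73, and from 41.6% to 30.6 and 1.89% for Olfr73 over Olfr160. Measured from the median of all genes, the members' median stayed between -2.29 and -2.26 in Olfr1507 over Olfr160 under the 4 scalings tried, between -1.23 and -1.22 in Olfr1507 over Olfr73, and between -1.35 and -1.26 in Olfr73 over Olfr160.

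The AP-1 family was led by Fos, a protein-coding gene at chr12:85473890-85477273 on the plus strand (GENCODE M21, build GRCm38). Its protein pairs with Jun proteins to bind DNA, and it was the most abundant member in every group, at a mean of 1991 TPM (counts scaled to transcript length and library size) in Olfr160, 790.3 in Olfr73 and 1344 in Olfr1507. Libraries 1, 2 and 3 held 2473, 1959.7 and 1457 CPM of Fos in Olfr160, 923, 764 and 698 in Olfr73 and 1401, 1249.7 and 1804 in Olfr1507. Olfr73 lay below both other groups without overlap, whereas Olfr160 and Olfr1507 overlapped. Olfr73 was lower than Olfr160 at a log2 fold change of -1.30 (SE 0.22, adjusted p = 0.00593), and Olfr1507 was higher than Olfr73 by 0.90 (SE 0.21, adjusted p = 0.0113), while Olfr1507 against Olfr160 gave -0.40 (SE 0.21, adjusted p = 0.143). The call in Olfr1507 over Olfr73 ended with scaling by library size (0.59, adjusted p = 0.0782) and to the transduction list (0.05, adjusted p = 0.907). Measured from the median of all genes, Fos stood between 1.05 and 1.06 there under the 4 scalings. Fos was called lower in Olfr1507 than in Olfr160 with DESeq2 (adjusted p = 0.0416), with limma on log2 of TPM plus 1 (0.0474) or plus 0.1 (0.0471), with scaling by library size (-0.84, 0.0174) or to the transduction list (-2.02, 0.000526), and without library 3 of Olfr160 (-0.57, 0.0377). While most other abundant members were several-fold apart between Olfr1507 and Olfr160, the Fos libraries of these groups overlapped, and Fos made up 79.9% ± 3.94 (SD, n = 3) of all member counts in Olfr1507, compared with 46.8% ± 0.992 in Olfr160 and 49.3% ± 6.04 in Olfr73.

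Fosb, a Fos relative known for its long-lived splice form in stimulated neurons, followed Fos in order but with no call in the main test. It held 47.7, 44.4 and 35.1 CPM in Olfr160, 35.2, 19.5 and 14.0 in Olfr73 and 27.5, 20.1 and 30.1 in Olfr1507, with Olfr73 overlapping both other groups and Olfr1507 below Olfr160 throughout (log2 fold change -0.71, SE 0.31, adjusted p = 0.0857). DESeq2 called Fosb lower than in Olfr160 both in Olfr1507 (adjusted p = 0.0363) and in Olfr73 (0.0243). In Olfr1507 over Olfr160, limma on log2 of TPM plus 1 (0.0369) or plus 0.1 (0.0389) also called it lower. Scaling by library size (0.0200) or to the transduction list (0.000686) did so too. Fosl2, another Fos relative, behaved differently. It held 12.3, 10.9 and 5.51 CPM in Olfr160, 2.82, 2.86 and 6.24 in Olfr73 and 0.108, 0.231 and 0.558 in Olfr1507, where every library was below all others. Fosl2 was lower in Olfr1507 than in Olfr160 at a log2 fold change of -5.00 (SE 0.67, adjusted p = 0.000365) and than in Olfr73 at -3.73 (SE 0.64, adjusted p = 0.00257). The AP-1 partners of the Jun family were scarce beside Fos: Jun averaged 6.45 ± 1.81, 4.50 ± 0.348 and 6.76 ± 1.04 CPM (SD, n = 3) in Olfr160, Olfr73 and Olfr1507, Junb between 0.846 and 1.73 CPM, and Jund had at most 0.270 CPM in any library. None of the tested Jun genes passed the main test in any of the 3 comparisons, and with an SE of 0.70 a difference in Junb of the size seen for Fos was not detectable at its depth. Under the transduction scaling, Jun was called lower than in Olfr160 both in Olfr1507 (adjusted p = 0.00538) and in Olfr73 (0.0368). That scaling also called Junb lower in Olfr1507 than in Olfr160 (0.0116). Per transcript length, Fos stood at 1344 TPM and Jun at 3.51 TPM in Olfr1507. Fosl1 held between 0.233 and 2.26 CPM and was not called in the main test. Maff, a small Maf protein that can pair with Fos, stayed under 0.771 CPM and was not called in the main test. DESeq2 called Maff lower in Olfr1507 than in Olfr160 (adjusted p = 0.0458) and in Olfr73 (0.0285), as did limma on both TPM scales.

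Atf3, a stress-induced factor that neurons also make after axon injury, was higher in Olfr160 than in both other groups. Its libraries held 163, 159 and 119 CPM in Olfr160, 84.1, 26.5 and 22.9 in Olfr73 and 31.2, 30.0 and 22.4 in Olfr1507. Library 1 of Olfr73 stood well above the other two of its group, and Olfr73 overlapped Olfr1507. Olfr1507 was lower than Olfr160 at a log2 fold change of -2.40 (SE 0.45, adjusted p = 0.00247) and Olfr73 lower than Olfr160 at -1.72 (SE 0.44, adjusted p = 0.0283). The difference between Olfr1507 and Olfr73 was -0.67 (SE 0.44, adjusted p = 0.254), and it was 0.18 without library 1 of Olfr73.

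In the Egr family of zinc finger factors, Egr2 was the most abundant and Egr4 was listed at 0 counts in all 9 libraries. Egr2 held 159, 107 and 73.2 CPM in Olfr160, 51.2, 41.5 and 17.2 in Olfr73 and 2.48, 5.88 and 8.82 in Olfr1507. The 3 groups did not overlap. Egr2 was lower in Olfr1507 than in Olfr160 at a log2 fold change of -4.30 (SE 0.55, adjusted p = 0.000302) and than in Olfr73 at -2.68 (SE 0.52, adjusted p = 0.00458), and Olfr73 was lower than Olfr160 at -1.62 (SE 0.49, adjusted p = 0.047). Egr1, the family member used most widely as a marker of neuronal activity and here in the dissociation class, spread less. It held 53.0, 34.7 and 26.3 CPM in Olfr160, 15.9, 15.1 and 10.3 in Olfr73 and 10.1, 8.32 and 10.7 in Olfr1507. Olfr160 stood above both other groups, with log2 fold changes of -1.97 for Olfr1507 (SE 0.28, adjusted p = 0.000538) and -1.47 for Olfr73 (SE 0.28, adjusted p = 0.00963), and the step between Olfr1507 and Olfr73 was -0.50 (SE 0.28, adjusted p = 0.18). Egr3 fell from a mean of 4.36 ± 2.12 CPM in Olfr160 to 0.126 ± 0.142 CPM in Olfr1507, where 1 library had 0 counts (-5.08, SE 1.11, adjusted p = 0.00512).

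Nr4a1, an orphan nuclear receptor that is among the fastest genes to respond to calcium, was the most abundant gene of the neuronal activity class, at 293 TPM in Olfr160, 94.3 in Olfr73 and 31.4 in Olfr1507. It held 412, 358 and 243 CPM in Olfr160, 158, 122 and 52.7 in Olfr73 and 43.0, 48.2 and 37.2 in Olfr1507, without overlap between groups. Nr4a1 was lower in Olfr1507 than in Olfr160 at a log2 fold change of -2.98 (SE 0.37, adjusted p = 0.000259) and than in Olfr73 at -1.37 (SE 0.35, adjusted p = 0.016), and lower in Olfr73 than in Olfr160 at -1.61 (SE 0.35, adjusted p = 0.0164). The call against Olfr73 ended without library 1 of Olfr73 (-1.02, adjusted p = 0.0526) and without library 1 or 3 of Olfr1507, with adjusted p = 0.0553 and 0.0611. The relatives of Nr4a1 were rare. Nr4a2 averaged 2.06 ± 1.01, 1.10 ± 0.801 and 0.218 ± 0.215 CPM in Olfr160, Olfr73 and Olfr1507, and its call in Olfr1507 over Olfr160 (adjusted p = 0.0349) ended without library 1 or 3 of Olfr1507 or library 1 or 2 of Olfr160. Nr4a3 had 0 counts in all Olfr1507 libraries and 0.482, 0.526 and 0.222 CPM in Olfr160; set against a floor of 3 counts over the Olfr1507 group it was at least 9.16-fold lower there than in Olfr160, and its adjusted p of 0.0325 did not pass 0.05 without any 1 of the 6 libraries.

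Npas4, a factor that responds to calcium in neurons more narrowly than Fos does, had a pattern of its own. It held 0.963, 1.70 and 1.78 CPM in Olfr160, 5.42, 1.97 and 6.198 in Olfr73 and 0.756, 0.759 and 2.40 in Olfr1507. All Olfr73 libraries lay above those of Olfr160, and library 3 of Olfr1507 lay above library 2 of Olfr73. No comparison passed the main test: Olfr73 over Olfr160 gave 1.61 (SE 0.64, adjusted p = 0.112), Olfr1507 over Olfr73 gave -1.80 (SE 0.65, adjusted p = 0.0567) and Olfr1507 over Olfr160 gave -0.19 (SE 0.64, adjusted p = 0.824). With DESeq2, Npas4 was called lower in Olfr1507 than in Olfr73 (adjusted p = 0.0212). Limma on log2 of TPM plus 1 (0.0346) or plus 0.1 (0.0381) gave the same call. So did scaling by library size (0.0333) or to the transduction list (0.0109). The call also came without library 2 of Olfr73 (0.0343) or library 3 of Olfr1507 (0.0282).

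Among the effectors of the neuronal activity class, Arc showed the clearest steps. Arc encodes a protein that acts at synapses and on receptor uptake, and its transcript is used widely to mark recently active neurons. The gene lies at chr15:74669083-74672570 on the minus strand (GENCODE M21, build GRCm38). Arc held 63.4, 37.1 and 35.8 CPM in Olfr160, 16.996, 11.1 and 7.32 in Olfr73 and 2.32, 3.10 and 2.12 in Olfr1507. The groups did not overlap, and every step passed the test: -4.16 for Olfr1507 over Olfr160 (SE 0.38, adjusted p = 4.78e-05), -2.22 for Olfr1507 over Olfr73 (SE 0.36, adjusted p = 0.0019) and -1.94 for Olfr73 over Olfr160 (SE 0.34, adjusted p = 0.00741). These calls held when any 1 library was left out. Arc in Olfr73 over Olfr160 gave no call when library 3 was the sole Olfr160 library, a setting chosen after the data were seen.

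The remaining effectors moved less. Homer1, a scaffold of synapses whose short form is the activity-induced one, averaged 7.13 ± 0.833, 5.29 ± 0.949 and 5.03 ± 1.04 CPM in Olfr160, Olfr73 and Olfr1507 and was not called in any comparison of the main test. Limma on log2 of TPM plus 1 (adjusted p = 0.0214) or plus 0.1 (0.0224) called it lower in Olfr1507 than in Olfr160. Scaling by library size (0.0257) or to the transduction list (0.000686) did so too. Counts per gene do not separate the short and long forms of Homer1. Nptx2, a secreted protein that clusters synaptic receptors, held 7.08, 9.86 and 15.1 CPM in Olfr160, 15.3, 18.4 and 17.8 in Olfr73 and 11.4, 9.90 and 7.93 in Olfr1507. Olfr73 lay above both other groups, and Olfr1507 was lower than Olfr73 at a log2 fold change of -0.81 (SE 0.28, adjusted p = 0.0488), a call that ended when any 1 of the 6 libraries was left out. Bdnf, the growth factor of activity-dependent plasticity, was at or below 0.323 CPM in every library, did not pass the filter and was listed at 0 in all Olfr73 libraries.

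Inhibitors that shorten the response included Zfp36, Btg2 and Socs3. Zfp36, which binds AU-rich messages and speeds their decay, held 718, 452 and 328 CPM in Olfr160, 162, 157 and 47.4 in Olfr73 and 13.4, 26.8 and 19.0 in Olfr1507. The groups did not overlap, and library 3 of Olfr73 was far below the other two of its group. Zfp36 was lower in Olfr1507 than in Olfr160 at a log2 fold change of -4.65 (SE 0.53, adjusted p = 0.000159) and than in Olfr73 at -2.62 (SE 0.49, adjusted p = 0.00374), and lower in Olfr73 than in Olfr160 at -2.03 (SE 0.47, adjusted p = 0.0199). Btg2, an antiproliferative partner of the deadenylase complex, held 728, 521 and 363 CPM in Olfr160, 294, 225 and 148 in Olfr73 and 89.6, 120.0 and 115 in Olfr1507. Its groups also stood apart, with -2.31 for Olfr1507 over Olfr160 (SE 0.30, adjusted p = 0.00033), -1.04 for Olfr1507 over Olfr73 (SE 0.29, adjusted p = 0.0227) and -1.27 for Olfr73 over Olfr160 (SE 0.29, adjusted p = 0.0193). The middle call, in Olfr1507 over Olfr73, rested on all libraries: it ended when any but library 3 of Olfr73 was left out, with adjusted p between 0.0501 and 0.0877. Socs3, an inhibitor of cytokine receptors, had Olfr160 libraries at 15.2, 11.1 and 8.32 CPM, Olfr73 at 2.77, 2.39 and 2.28 and Olfr1507 at 0.216, 1.42 and 0.670. All 3 of its comparisons were called, from -3.86 for Olfr1507 over Olfr160 (SE 0.59, adjusted p = 0.000787) to -1.65 for Olfr1507 over Olfr73 (SE 0.55, adjusted p = 0.0456), and the latter call ended when any library of the pair but library 2 of Olfr1507 was left out.

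The MAP kinase phosphatases differed from one another. Dusp6, which acts on ERK in the cytoplasm, held 79.0, 77.7 and 61.3 CPM in Olfr160, 30.8, 32.6 and 17.6 in Olfr73 and 3.45, 4.79 and 5.75 in Olfr1507. Dusp6 stepped down without overlap and passed each test, at a log2 fold change of -3.96 for Olfr1507 over Olfr160 (SE 0.29, adjusted p = 1.86e-05), -2.53 for Olfr1507 over Olfr73 (SE 0.27, adjusted p = 0.000255) and -1.43 for Olfr73 over Olfr160 (SE 0.26, adjusted p = 0.00811). Dusp1, the nuclear phosphatase most often named in dissociation signatures, had another pattern, with 24.2, 24.2 and 24.9 CPM in Olfr160, 26.7, 26.2 and 32.4 in Olfr73 and 10.5, 10.3 and 8.49 in Olfr1507. Both calls were for Olfr1507, at a log2 fold change of -1.32 from Olfr160 (SE 0.15, adjusted p = 0.000175) and -1.54 from Olfr73 (SE 0.15, adjusted p = 0.000178), while Olfr73 over Olfr160 gave 0.22 (SE 0.15, adjusted p = 0.336). Dusp1 shares exon positions on the opposite strand with Ergic1, and whether strand was used in counting is not given, so reads of the pair may not be told apart; Ergic1 averaged 24.3, 12.5 and 9.90 CPM in Olfr160, Olfr73 and Olfr1507. Dusp4 fell from 2.25 ± 0.459 CPM in Olfr160 to 0.0736 ± 0.0840 in Olfr1507 (-4.71, SE 1.00, adjusted p = 0.00441), and was also called in Olfr1507 over Olfr73 (-2.92, adjusted p = 0.0417), a call that ended without the filter on low counts (adjusted p = 0.064), with the replicate block (0.082), on log2 of TPM plus 1 (0.131), and without library 3 of Olfr73 (0.106) or library 1 or 3 of Olfr1507 (0.0926 and 0.116). Dusp5 averaged 4.29 ± 0.578, 3.19 ± 0.0231 and 5.51 ± 1.22 CPM in Olfr160, Olfr73 and Olfr1507 and was not called in the main test. DESeq2 called Dusp5 higher in Olfr1507 than in Olfr73 (adjusted p = 0.0352). The transduction scaling called it lower in Olfr1507 than in Olfr160 (0.0198). Dusp2 was at 0 counts in all Olfr160 and Olfr1507 libraries and did not pass the filter.

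Within the Ier genes, named only for their early induction, Ier3 and Ier2 went in opposite directions in Olfr1507 over Olfr73. Ier3 held 73.5, 61.0 and 32.4 CPM in Olfr160, 20.5, 13.7 and 10.3 in Olfr73 and 1.24, 1.58 and 0.949 in Olfr1507. This was the largest fall among members with counts in every library, at -5.43 for Olfr1507 over Olfr160 (SE 0.42, adjusted p = 2.35e-05), with -3.53 for Olfr1507 over Olfr73 (SE 0.40, adjusted p = 0.0003) and -1.91 for Olfr73 over Olfr160 (SE 0.34, adjusted p = 0.00832). Ier2 held 5.92, 7.80 and 5.96 CPM in Olfr160, 5.90, 6.32 and 3.36 in Olfr73 and 9.93, 11.5 and 10.9 in Olfr1507, all Olfr1507 libraries being the highest. Ier2 was higher in Olfr1507 than in Olfr73 by 1.06 (SE 0.29, adjusted p = 0.0204) and not called against Olfr160 (0.72, SE 0.29, adjusted p = 0.0625). The former call ended with scaling by library size (0.74, adjusted p = 0.0715) and to the transduction list (0.20, adjusted p = 0.637), while Ier2 measured from the median of all genes stood at 1.21 under the 4 scalings. It also ended without library 2 or 3 of Olfr1507, with adjusted p = 0.0676 and 0.0586. Ier5 stayed between 0.352 and 1.46 CPM and was not called.

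Gadd45b and Gadd45g, stress-response proteins linked to DNA demethylation, stepped down together. Gadd45g held 48.0, 44.4 and 23.5 CPM in Olfr160, 16.1, 9.83 and 4.66 in Olfr73 and 0.918, 2.97 and 0.614 in Olfr1507, and Gadd45b 18.3, 15.0 and 9.12, 7.001, 2.81 and 3.22 and 0.756, 1.06 and 1.28. Neither gene had overlapping groups. Olfr1507 was lower than Olfr160 at a log2 fold change of -4.62 for Gadd45g (SE 0.66, adjusted p = 0.000552) and -3.77 for Gadd45b (SE 0.47, adjusted p = 0.000266), and both were also called in the other 2 comparisons. Among the Klf factors, Klf6, known in neurons for its role in axon growth, held 263, 197 and 153 CPM in Olfr160, 153, 119.9 and 103 in Olfr73 and 60.7, 70.6 and 49.7 in Olfr1507. Olfr1507 lay below every other library, at a log2 fold change of -1.76 from Olfr160 (SE 0.23, adjusted p = 0.000313) and -1.06 from Olfr73 (SE 0.22, adjusted p = 0.00674). Klf6 in Olfr73 over Olfr160 gave -0.70 (SE 0.22, adjusted p = 0.0566), with no call in the main test. DESeq2 (0.00744) and limma on both TPM scales (0.0270 and 0.0337) called it lower in Olfr73. Scaling by RLE (0.0443), by library size (0.0472) or to the transduction list (0.0143) did so too. Klf4 averaged 3.37 ± 0.708 CPM in Olfr160 and 0.632 ± 0.230 in Olfr1507, a call (adjusted p = 0.0353) that ended without any 1 of the 6 libraries. Klf2 stayed between 0.186 and 1.34 CPM and was not called.

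**Figure D2:**
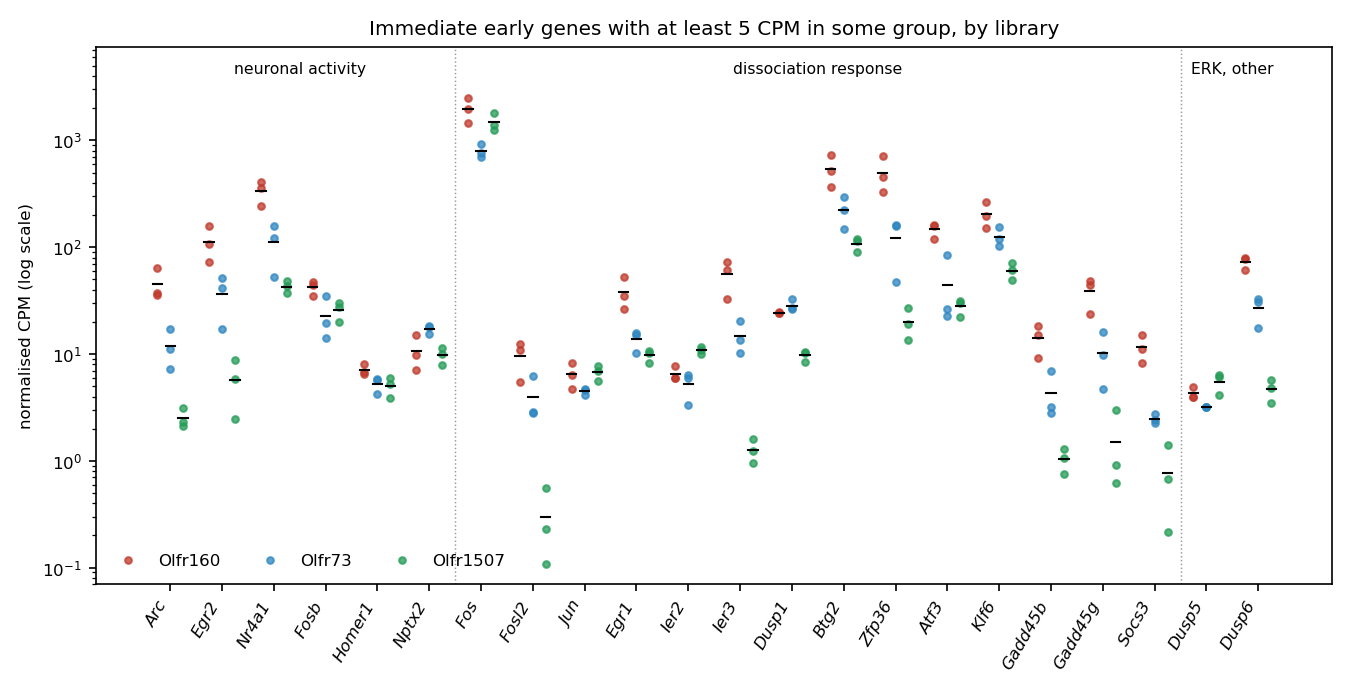
Normalised CPM on a log axis (y axis) in each library of the 22 genes with at least 5 CPM in some group (x axis); points are libraries, coloured by receptor group, and black lines are group means of 3 libraries. Most genes step down from Olfr160 to Olfr73 to Olfr1507, while the group means of Jun, Homer1 and Dusp5 lie closest together.

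The calls differed in how far they rested on single libraries. In Olfr1507 over Olfr160, 17 of the 20 calls held when each of the 6 libraries was left out in turn, the exceptions being Nr4a2, Nr4a3 and Klf4, and 15 held with library 3 as the sole Olfr160 library. Without library 2 of Olfr1507, fold changes from Olfr160 moved by over 1.5 times for Gadd45g (to -5.64), Dusp4 (to -6.07), Socs3 (to -4.68) and Nr4a2 (to -4.14), and from Olfr73 for Gadd45g (to -3.72), Dusp4 (to -4.28) and Socs3 (to -2.47). Without library 3 of Olfr1507, those of Egr3 (to -6.13) and Fosl2 (to -5.71) moved as much from Olfr160, and that of Fosl2 from Olfr73 (to -4.44). Dusp4 in Olfr1507 over Olfr73 came to -2.17 without library 3 of Olfr73, and Atf3 in Olfr73 over Olfr160 to -2.57 without library 1 of Olfr73. In Olfr1507 over Olfr73, 11 of 17 calls held when each library was left out in turn, among them Arc, Egr2, Fos, Fosl2, Ier3, Dusp1, Zfp36, Klf6 and Dusp6. In Olfr73 over Olfr160 the same held for 5 of 13, namely Arc, Fos, Egr1, Ier3 and Dusp6. Without library 1 of Olfr160 or without library 2, the calls of Egr2, Nr4a1, Btg2, Zfp36, Atf3, Gadd45b, Gadd45g and Socs3 ended, and 5 genes were called lower in each case. With library 3 as the sole Olfr160 library, 0 of the 13 calls remained, and the fit then took the spread of that library from the other groups.

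Within Olfr160 and within Olfr73, the libraries were ordered alike across genes. Over the 22 genes with at least 5 CPM in some group, library 1 of Olfr160 was the highest of its group for 17 genes and library 3 the lowest for 17. Their median log2 deviation from the group mean was 0.37, 0.054 and -0.39 in libraries 1, 2 and 3, against 0.016, 0.028 and -0.018 for all tested genes. In Olfr73, library 1 was the highest for 16 genes and library 3 the lowest for 18, with medians of 0.27, 0.020 and -0.42. Olfr1507 libraries spread less, with medians of -0.098, 0.14 and 0.011. Immune markers took 0.0888, 0.0697 and 0.0272% of counts in libraries 1, 2 and 3 of Olfr160 and 0.0119, 0.00869 and 0.00845% in those of Olfr73, in the same order as the immediate early genes. Sustentacular and gland markers took 0.572, 0.428 and 0.311% in Olfr73, again in that order, and 2.96, 4.57 and 2.00% in Olfr160, where library 2 was highest. In Olfr1507 they took 0.0572, 0.0333 and 0.0237%, while the summed members took 0.147, 0.138 and 0.184%. The part of these cells in the order was not tested.

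As a share of all counts, the members summed to 0.480% in Olfr160 (0.331 to 0.652 over libraries), 0.173% in Olfr73 (0.131 to 0.219) and 0.156% in Olfr1507 (0.138 to 0.184). Leaving out Fos, the shares were 0.256% ± 0.0910, 0.0892% ± 0.0316 and 0.0309% ± 0.00253 (SD, n = 3). Olfr73 and Olfr1507 therefore had nearly the same total, of which Fos was the larger part in Olfr1507.

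**Figure D3:**
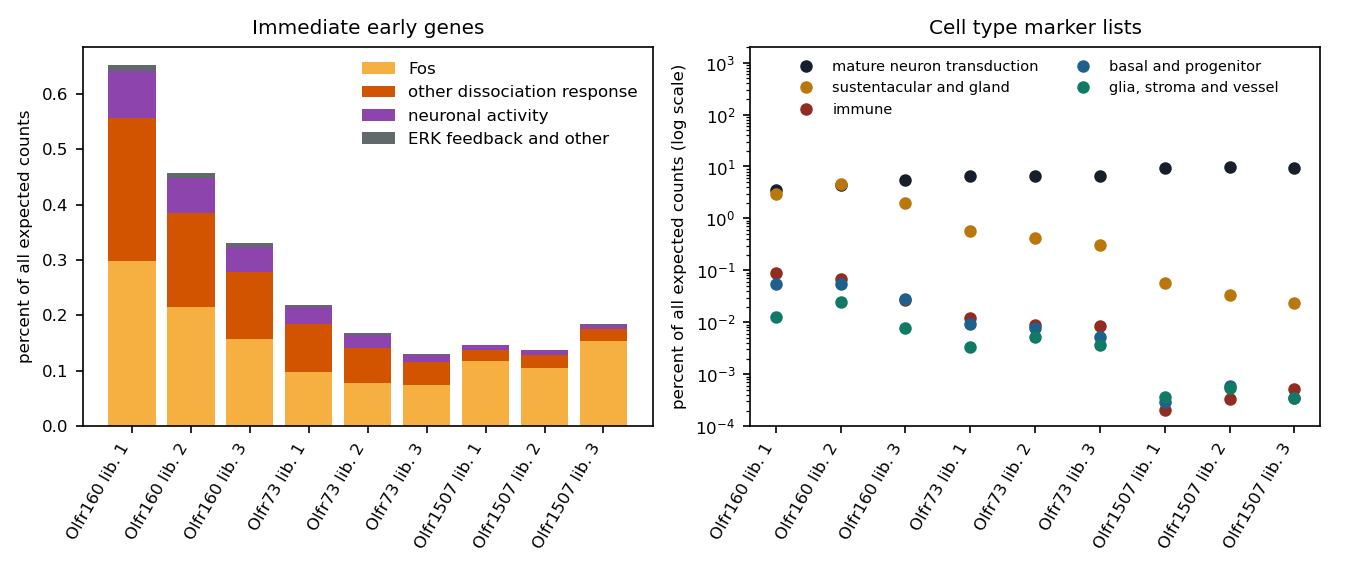
Left, percent of all expected counts (y axis) taken by Fos, by the other genes of the dissociation class, by the neuronal activity class and by the ERK feedback genes, stacked for each of the 9 libraries (x axis). Right, percent of counts on a log axis for marker lists of cell types in the same libraries: Olfr160 libraries are highest and Olfr1507 libraries lowest for the 4 lists of other cells, and the transduction list runs the other way.

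Genes tied to neuronal activity and genes of the general dissociation response were then set side by side. In Olfr1507 over Olfr160, 6 of 10 tested genes of the neuronal activity class and 12 of 19 of the dissociation class were called lower, with median log2 fold changes of -3.07 and -2.31. In Olfr1507 over Olfr73, 4 of 10 and 9 of 19 were lower, and the medians were -2.01 and -1.04; both genes called higher, Fos and Ier2, are in the dissociation class. With Nr4a3 set at its bound in place of the fitted value, the neuronal median in this comparison was -1.91. In Olfr73 over Olfr160, 3 of 10 and 9 of 19 were lower, with medians of -1.02 and -1.27. The order Olfr160, Olfr73, Olfr1507 held for 7 of 10 and 12 of 19 genes. The shares of all tested genes called lower were 27.7, 19.9 and 10.5% in these comparisons, and 30.2% had that order of means. The difference between the classes was not tested, since their members were chosen with results of these data known.

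The comparison of classes depended on which genes were counted in them. Egr2, Egr3, Nr4a1, Nr4a3 and Fosb also respond to stimuli outside neurons. Without them, a narrow neuronal list of Arc, Npas4, Egr4, Nr4a2, Homer1, Bdnf and Nptx2, of which 5 were tested, had medians of -0.50, -1.80 and -0.43 in Olfr1507 over Olfr160, Olfr1507 over Olfr73 and Olfr73 over Olfr160. A narrow dissociation list of 10 genes, Fos, Jun, Junb, Egr1, Ier2, Ier3, Dusp1, Btg2, Zfp36 and Atf3, had medians of -1.64, -0.59 and -1.29. Thus the neuronal median was the lower of the pair in Olfr1507 over Olfr160 with the full lists and the higher with the narrow ones. That narrow neuronal median is the value of Homer1, which was not called. Arc (-4.16) and Nr4a2 (-3.16) were called lower there, while Npas4 (-0.19) and Nptx2 (-0.13) were not called. The narrow lists were chosen with earlier results known, and Nr4a2 was kept although its relatives Nr4a1 and Nr4a3 were left out. Within the dissociation class the spread was wide: in Olfr1507 over Olfr160 it ran from -5.43 for Ier3 to 0.72 for Ier2, and within the neuronal class from -5.08 for Egr3, with Nr4a3 at its bound, to -0.13 for Nptx2. The 5 ERK feedback and other genes had 4 tested, of which Dusp4 and Dusp6 were lower in Olfr1507 than in both other groups.

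Fold changes were also read against the promoters shown above. Of the 26 tested genes with a promoter in the table, the 16 with a CRE core had a median log2 fold change of -1.82 in Olfr1507 over Olfr160, and the 10 without one -3.91, with 8 genes called lower in each set. In Olfr1507 over Olfr73 the medians were -1.01 and -2.30, and in Olfr73 over Olfr160 they were -0.97 and -1.56. Fos, Fosb, Homer1, Npas4 and Dusp5, which hold cores, were among the members nearest to 0 in Olfr1507 over Olfr160. Jun, without a core, was nearer still at 0.07, and Klf6, also without one, stood at -1.76. Ier3, Fosl2, Zfp36 and Gadd45g, without one in the window, were among those that fell furthest. Egr2 (-4.30), Nr4a2 (-3.16) and Nr4a1 (-2.98) hold cores and fell as well, as did Nr4a3, at least 9.16-fold lower. The sets therefore overlapped. These medians are a description with no test.

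Other immediate early genes, 25 listed by name and 21 tested, gave 11 lower and 1 higher in Olfr1507 over Olfr160, 5 lower and 3 higher in Olfr1507 over Olfr73, and 7 lower and 0 higher in Olfr73 over Olfr160; at an unadjusted p of 0.05, 12 were lower and 0 higher in the last. Called lower were 52.4, 23.8 and 33.3% of them, against 27.7, 19.9 and 10.5% of all genes, and called higher 4.76, 14.3 and 0%, against 20.7, 14.5 and 7.45%, so that in Olfr1507 over Olfr73 the shares were near those of the table. Their medians were -1.26, -0.36 and -0.96, closer to 0 than those of the members. Plk2, a kinase induced at active synapses, followed Arc, with 107.9 ± 28.0 CPM in Olfr160, 30.8 ± 10.2 in Olfr73 and 5.91 ± 1.89 in Olfr1507 (SD, n = 3). All 3 comparisons of Plk2 were called, from -4.17 (SE 0.34, adjusted p = 3.02e-05) for Olfr1507 over Olfr160 to -1.81 (SE 0.31, adjusted p = 0.00657) for Olfr73 over Olfr160. Irf1, Rgs2 and Ccn1 had the same order, with log2 fold changes of -4.47, -5.11 and -4.56 in Olfr1507 over Olfr160 (adjusted p = 0.000203, 0.000307 and 0.000485).

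The 26 kinases and transcription factors that act upstream of these genes, such as Creb1, Srf, the Elk factors and the calcium-dependent enzymes, were all tested. In Olfr1507 over Olfr160, 4 were higher and 5 lower, in Olfr1507 over Olfr73 2 were higher and 3 lower, and in Olfr73 over Olfr160 3 were higher and 0 lower (5 and 2 at an unadjusted p of 0.05), with medians of 0.17, -0.088 and 0.14. Called in either direction were 34.6, 19.2 and 11.5% of them, against 48.4, 34.4 and 17.9% of all genes. Mef2c, a factor that controls activity-dependent genes in neurons and is also made by immune and endothelial cells, fell from 20.1 ± 5.90 CPM in Olfr160 to 1.07 ± 0.225 in Olfr1507 (-4.21, SE 0.37, adjusted p = 4.09e-05). Ppp3ca, the catalytic subunit of the calcium-dependent phosphatase calcineurin, went the other way, from 65.5 ± 16.4 to 360.3 ± 76.2 CPM (2.46, SE 0.23, adjusted p = 5.44e-05). Camk2a, a subunit of a calcium-dependent kinase, averaged 22.8 ± 3.43, 37.7 ± 3.70 and 42.4 ± 4.11 CPM in Olfr160, Olfr73 and Olfr1507 and was higher than in Olfr160 both in Olfr1507 (0.90, SE 0.15, adjusted p = 0.0013) and in Olfr73 (0.73, SE 0.15, adjusted p = 0.013). Elk3, a partner of the serum response factor, averaged 0.960 ± 0.207, 2.06 ± 0.145 and 0.123 ± 0.137 CPM in the same order. It was lower in Olfr1507 than in Olfr160 (-2.92, SE 0.89, adjusted p = 0.0232) and than in Olfr73 (-4.02, SE 0.92, adjusted p = 0.00956), with Olfr1507 near the floor of 3 counts.

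Genes whose level in olfactory neurons is known to follow odour-driven and receptor-driven activity formed a list of 3, S100a5, Kirrel2 and Pcdh10, none of which had the order of means of Arc. S100a5, a calcium-binding protein lost when a nostril is closed, averaged 205.5 ± 58.9 CPM in Olfr160, 324.5 ± 165.7 in Olfr73 and 5.12 ± 2.59 in Olfr1507. Olfr1507 was lower than Olfr160 at a log2 fold change of -5.32 (SE 0.55, adjusted p = 9.45e-05) and lower than Olfr73 at -5.98 (SE 0.57, adjusted p = 0.00014), whereas Olfr73 over Olfr160 gave 0.66 (SE 0.45, adjusted p = 0.332). Kirrel2, an adhesion protein of olfactory axons, had the same pattern, with 1695 ± 499 CPM in Olfr160, 2166 ± 962 in Olfr73 and 221 ± 157.8 in Olfr1507. Pcdh10, a protocadherin, averaged 3.08 ± 0.391, 9.07 ± 1.40 and 3.22 ± 1.42 CPM in Olfr160, Olfr73 and Olfr1507. It was higher in Olfr73 than in Olfr160 (1.55, SE 0.36, adjusted p = 0.0194) and lower in Olfr1507 than in Olfr73 (-1.49, SE 0.36, adjusted p = 0.0116), while Olfr1507 over Olfr160 gave 0.06 (SE 0.35, adjusted p = 0.90). Npas4, Nptx2, Maff and Dusp1 were the members that shared the order of means of S100a5 and Kirrel2, highest in Olfr73 and lowest in Olfr1507. That order held for 12.1% of the tested members and 16.2% of all tested genes. The step between Olfr73 and Olfr160 passed the test for none of these genes.

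Base composition and overlapping genes are given beside the levels, and their part in them was not tested. Of the 37 genes, 5 have a longest transcript with over 60% GC, namely Egr4, Junb, Jund, Ier2 and Klf2, and the highest mean among them was 11.1 TPM, for Ier2. In this group 2 of 5 had a mean of at least 1 TPM, compared with 24 of the 32 at or under 60% GC, and the medians were 0.928 and 6.60 TPM. Across the 37 genes Spearman's rho of GC content and mean TPM was -0.216, as a description over genes of the same libraries. Over all tested genes with a known transcript the medians were 3.82 TPM for 403 genes over 60% GC and 8.26 TPM for 15989 others. Junb also shares exon positions with Prdx2 on the opposite strand, a gene at 170.1, 112.4 and 237.3 CPM in Olfr160, Olfr73 and Olfr1507, so its low counts carry the doubt named for Dusp1. Jun, Jund, Zfp36, Fosl1, Bdnf and Dusp5 have opposite-strand neighbours too, of which those counted averaged at most 1.24 CPM in any group. That value was of Ccdc85b, beside Fosl1, in Olfr73, where Fosl1 itself averaged 0.541 CPM, so Fosl1 carries the same doubt.

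**Figure D4:**
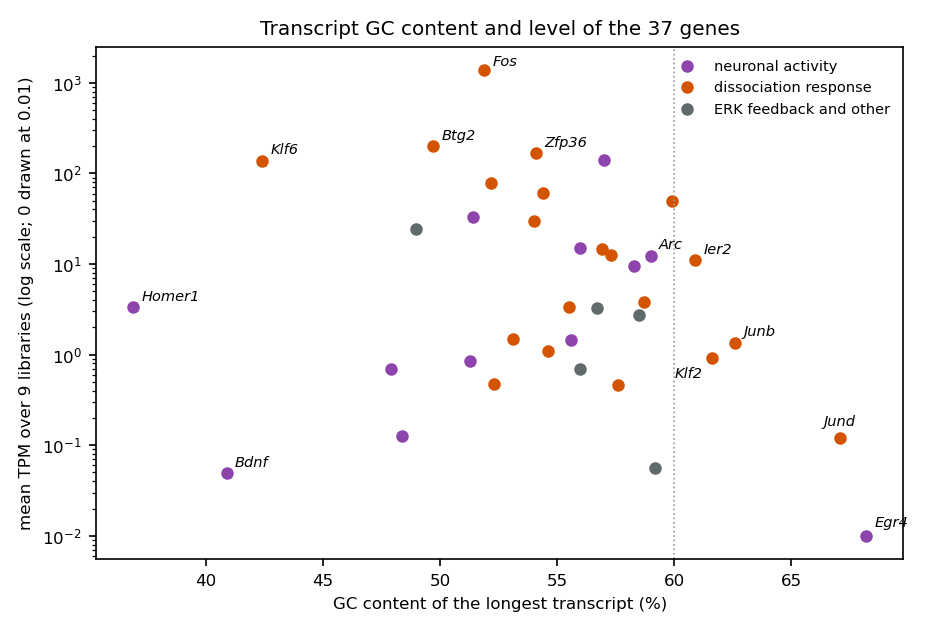
GC content of the longest transcript (x axis, percent) and mean TPM over the 9 libraries on a log axis (y axis) for the 37 genes, coloured by class, with Egr4, listed at 0, drawn at 0.01. The 5 genes right of the dotted line at 60% GC reach at most 11.1 TPM, and Fos lies far above the rest.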

How the data were processed

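Bulk RNA-seq of sorted olfactory neurons was analysed from tables of 9 libraries, 3 in each of 3 groups. The authors deposited expected counts and TPM per gene; per the submitters' processing notes STAR 2.6.1, RSEM 1.3.1 and DESeq2 were named, while the strand setting is not given in the sources used here. Deposited expected counts, 4.06 to 5.54% of which were not whole, were rounded. Columns carry older receptor names, which were matched to the samples through RefSeq synonyms and the replicate number. The deposited TPM values were used to compare levels between genes.

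Genes with low counts were removed with filterByExpr, libraries were scaled by TMM, and edgeR 4.0.16 (R 4.3.3) fitted a quasi-likelihood model with 1 mean per group over all 9 libraries, with Benjamini-Hochberg adjustment over 16399 genes and a threshold of 0.05. Normalised CPM use the TMM-scaled library sizes, SE is the absolute log2 fold change over the root of F, and fold changes give the first named group over the second. Over all tested genes, same-numbered libraries did not deviate together (Pearson's r between -0.193 and 0.13). This does not show whether they were prepared together. Replicates of a group were distinct libraries. Gene positions and overlaps came from GENCODE M21, which held 98.7% of the transcript identifiers, and promoters from RefSeq. The scripts were tested on simulated data. Alternatives were other scalings, filters, tools (DESeq2 1.42.0, limma 3.58.1 on log2 of TPM plus 1 or 0.1), a replicate block and leaving out each library.

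The 37 members and all other lists were chosen with earlier results of these data known, so lists are given as counts and medians without a test. All 37 members are named or counted; among other immediate early genes and upstream regulators the 4 of lowest adjusted p were picked.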

Additional observations from a re-analysis of the deposited data

How the results depend on the processing

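The limits are those of 3 libraries a group, of a digestion that every group shared, and of RNA from several other cell types that was highest in Olfr160. Genes near the floor of 3 counts, such as Bdnf, Jund, Dusp2 and Nr4a3, allow no statement on small differences. Of 1543 fold changes of single members under alternatives, 1315 kept their direction and side of the threshold, and 43 turned direction. Among the others, which kept their direction, 107 lost the call and 78 gained one. The cause was not tested.

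Scaling to the transduction list gave 31, 23 and 20 members lower in Olfr1507 over Olfr160, Olfr1507 over Olfr73 and Olfr73 over Olfr160 (20, 15 and 13 in the main analysis), 0 higher in Olfr1507 over Olfr73, neuronal medians of -4.71, -2.87 and -1.80 and dissociation medians of -3.96, -1.90 and -2.06. Library size alone gave 0 higher in Olfr1507 over Olfr73. An adjusted p of 0.01 gave 9 lower and 0 higher there, and 5 lower in Olfr73 over Olfr160. With only the 6 libraries compared, 1 member was higher in Olfr1507 over Olfr160, and the neuronal median in Olfr1507 over Olfr73 was -1.41. On log2 of TPM plus 1 the neuronal medians were -0.90 and -0.69 in Olfr1507 over Olfr160 and Olfr1507 over Olfr73, and on TPM plus 0.1 they were -2.15 and -1.52; fold changes of low genes are smaller on these scales by construction. Narrow neuronal medians were -0.50 in Olfr1507 over Olfr160 and -0.43 in Olfr73 over Olfr160. With library 3 as the sole Olfr160 library, a setting chosen after seeing the data, the neuronal medians were -2.39 and -0.49, and 0 members were lower in Olfr73 over Olfr160.

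Leaving out 1 library at a time gave between 17 and 19 members lower in Olfr1507 over Olfr160, between 10 and 14 lower and 1 to 2 higher in Olfr1507 over Olfr73, and between 5 and 16 lower and 0 to 1 higher in Olfr73 over Olfr160. The neuronal median ranged from -3.60 to -2.77, from -2.19 to -1.57 and from -1.49 to -0.70 in these comparisons, and the dissociation median from -2.52 to -2.01, from -1.26 to -0.78 and from -1.49 to -1.05.

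With the replicate number as a block, 18, 12 and 13 members were lower in Olfr1507 over Olfr160, Olfr1507 over Olfr73 and Olfr73 over Olfr160. The numbers alone do not show whether same-numbered libraries were prepared together, and members in Olfr160 and in Olfr73 were ordered alike by number.

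All members that turned direction had been uncalled in the main test. Of the turned ones, Jun (adjusted p = 0.00538) and Dusp5 (0.0198) were then called lower in Olfr1507 over Olfr160 under the transduction scaling. In Olfr1507 over Olfr160, the transduction scaling turned Jun to -1.51, Ier2 to -0.83, Klf2 to -1.16 and Dusp5 to -1.23, and library size turned Jun to -0.35 and Dusp5 to -0.070. Jun was also -0.038 with RLE, -0.037 with DESeq2, and -0.083 and -0.0995 on TPM plus 1 and plus 0.1, and Fos was 0.030 with the sole Olfr160 library. In Olfr1507 over Olfr73, the transduction scaling turned Fosb to -0.69, Jun to -0.27, Junb to -0.84, Klf2 to -0.11 and Dusp5 to -0.066, and library size turned Fosb to -0.15 and Junb to -0.31. Junb was also -0.0077 with RLE, -0.0088 with the block, -0.025 with 6 libraries, -0.0085 with DESeq2, and -0.071 and -0.16 on the TPM scales. In Olfr73 over Olfr160, the transduction scaling turned Dusp1 to -0.48 and Maff to -0.38. Leaving out 1 library gave ranges that crossed 0 for Npas4 (-0.96 to 0.097), Nptx2 (-0.36 to 0.21) and Jun (-0.11 to 0.30) in Olfr1507 over Olfr160. The same held for Fosb (-0.080 to 0.63), Homer1 (-0.21 to 0.089), Junb (-0.52 to 0.44), Ier5 (-0.62 to 0.023), Atf3 (-0.98 to 0.18) and Klf4 (-1.49 to 0.11) in Olfr1507 over Olfr73, and for Klf2 (-1.06 to 0.16) in Olfr73 over Olfr160.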
